A study of Mus musculus with 12 samples.

Results

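A set of 9 nuclear genes that control how mitochondria are made was followed across the differentiation of mouse preadipocytes, in cells with and without ATP citrate lyase. That enzyme, the product of Acly, makes acetyl-CoA from citrate in the cytosol and nucleus. The genes are the coactivators Ppargc1a and Ppargc1b, the transcription factors Esrra, Nrf1 and Gabpa, and the mitochondrial transcription genes Tfam, Tfb1m, Tfb2m and Polrmt. They were chosen by name, as the 9 rows with these symbols among the 24341 genes of the deposited table, and all 9 were found. RNA was sequenced in 12 libraries from adipose-derived cells of C57Bl/6 mice that had been immortalised with SV40, so all 4 groups carry that immortalisation. The groups, with 3 libraries each, are Aclyf/f preadipocytes (day 0, Acly flanked by loxP sites and intact), Acly-/- preadipocytes (day 0), Aclyf/f adipocytes (day 4) and Acly-/- adipocytes (day 4). Adipocytes had been induced with a cocktail that contained rosiglitazone, an agonist of PPARgamma, and preadipocytes had not. How Acly was deleted, and whether libraries of a group come from separate cultures, clones or animals, is not stated by the labels, so p-values measure only the spread between these libraries.

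Mitochondria carry a small genome that is transcribed inside the organelle, while nearly all of their proteins are encoded in the nucleus. PGC-1alpha and PGC-1beta, the products of Ppargc1a and Ppargc1b, bind no DNA themselves. They are recruited by factors such as ERRalpha (Esrra), NRF1 and GABP (whose DNA-binding subunit is Gabpa), which stand at promoters of respiratory chain genes and of genes for the mitochondrial transcription machinery. Within that machinery, POLRMT is the RNA polymerase, TFAM bends and packages mitochondrial DNA, TFB2M opens the promoter with the polymerase, and TFB1M methylates the small ribosomal RNA of the organelle. In fat, PGC-1alpha is best known for the thermogenic programme of brown and beige cells, and mitochondria multiply when preadipocytes become adipocytes.

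Levels are FPKM, fragment counts scaled to transcript length and library depth, so they can be compared between genes. Depth, estimated from the steps between low values, ranged from 1 to 1.93 relative to the shallowest library, and each library had 10977 to 11143 genes at 1 FPKM or more. The deleted gene, Acly, ranged from 84.9 to 89.5 FPKM in Aclyf/f and from 11.9 to 12.5 FPKM in Acly-/- libraries on day 0, and from 722 to 814 FPKM against 11.0 to 13.2 FPKM on day 4. Adipocyte libraries carried adipocyte markers, but at lower levels without Acly: Adipoq (adiponectin) was 544 ± 7.05 FPKM (SD, n = 3) with Acly and 60.7 ± 1.24 FPKM without it. Other markers differed less, with Plin1 at 196 ± 12.7 and 98.4 ± 6.80 FPKM and Pparg at 161 ± 1.18 and 148 ± 13.7 FPKM. Fabp4, which makes up most of the sum given next, was 8835 ± 405 and 6113 ± 702 FPKM. Over the 7 adipocyte markers listed, of which Lep was on the floor of the table (0.01 FPKM) and 6 reached 1 FPKM in adipocytes, the summed level was 9975 to 10739 FPKM in Aclyf/f adipocyte libraries and 5825 to 7237 FPKM in those without Acly. The 7 markers of preadipocytes or fibroblasts summed to 187 to 283 FPKM in the former and 874 to 892 FPKM in the latter, of which Ly6a was 128 and 649 FPKM on average. Of these 7, 5 had a higher mean without Acly and 2, Cd34 and Thy1, a lower one. Of the 6 brown fat markers, Cidea and Dio2 sat on that floor in all 12 libraries and Ucp1 did not exceed 0.0587 FPKM. Prdm16 averaged 0.466 to 0.722 FPKM over the groups, and in Aclyf/f adipocytes Cox8b averaged 1.29 and Elovl3 0.590 FPKM, against 0.01 and 0.0714 FPKM in Acly-/- adipocytes. Ptprc, which marks leukocytes, was on the floor throughout, while Cd14 averaged 1.36 to 3.63 FPKM over the groups. Among 5 muscle markers Myod1, Myog and Ckm were on the floor throughout, and Acta1 and Des did not exceed a group mean of 3.86 FPKM. Of 4 smooth muscle or pericyte markers, Acta2 averaged 401 and 129 FPKM in Aclyf/f and Acly-/- preadipocytes, and 17.4 and 44.8 FPKM in the adipocytes of each. Myh11 went the other way, at 0.116 and 0.134 FPKM in preadipocytes and 6.96 and 3.14 FPKM in adipocytes. Rgs5 and Cspg4 did not exceed a group mean of 0.434 FPKM. At each stage 2 of the 4 had a higher mean without Acly and 2 a lower one. The part of these cells in the results was not tested.

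Of the 9 regulators, 8 entered the test across genes, which took genes that reached 1 FPKM in 3 or more libraries. Ppargc1a lay far below that. The test was limma on log2(FPKM + 1), and 11777 genes entered it, with p-values adjusted over all of them and a call at an adjusted p under 0.05. Before differentiation, limma called 0 of the 8 regulators between genotypes, in a comparison where 42.2% of all genes tested were called, 19.7% higher and 22.4% lower. At an unadjusted p under 0.05 there was 1, Tfb2m (unadjusted p = 0.0270). In adipocytes 4 of 8 were called, all of them lower without Acly, where 54.8% of all genes were called, 25.6% higher and 29.2% lower. The 4 were Ppargc1b, Esrra, Nrf1 and Tfb1m. As Aclyf/f cells differentiated, 5 regulators rose and 1 fell, against 72.5% of all genes called, 36.5% higher and 36.0% lower. In Acly-/- cells 4 rose and 1 fell, against 61.4% called, 30.4% higher and 31.0% lower. The difference between both differentiation changes was called for 4 of 8, namely Ppargc1b, Esrra, Nrf1 and Tfb1m, each toward a lower value without Acly, where 50.2% of all genes were called, 23.7% higher and 26.4% lower. In adipocytes, in both differentiation changes and in the difference between them, the regulators' count in either direction was near that background. Libraries of the compared groups did not overlap for 1 of 9 regulators for Acly loss in preadipocytes (49.9% of all genes tested) and 5 of 9 in adipocytes (63.2%). For differentiation they did not overlap for 7 of 9 in Aclyf/f cells (75.7%) and 6 of 9 in Acly-/- cells (64.6%). These counts include Ppargc1a, which is not among the genes tested that give the shares. It is the 1 regulator in preadipocytes and 1 of those in each differentiation change, and it overlapped in adipocytes. None of the 8 tested regulators was thus apart between genotypes in preadipocytes.

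**Figure D1:**
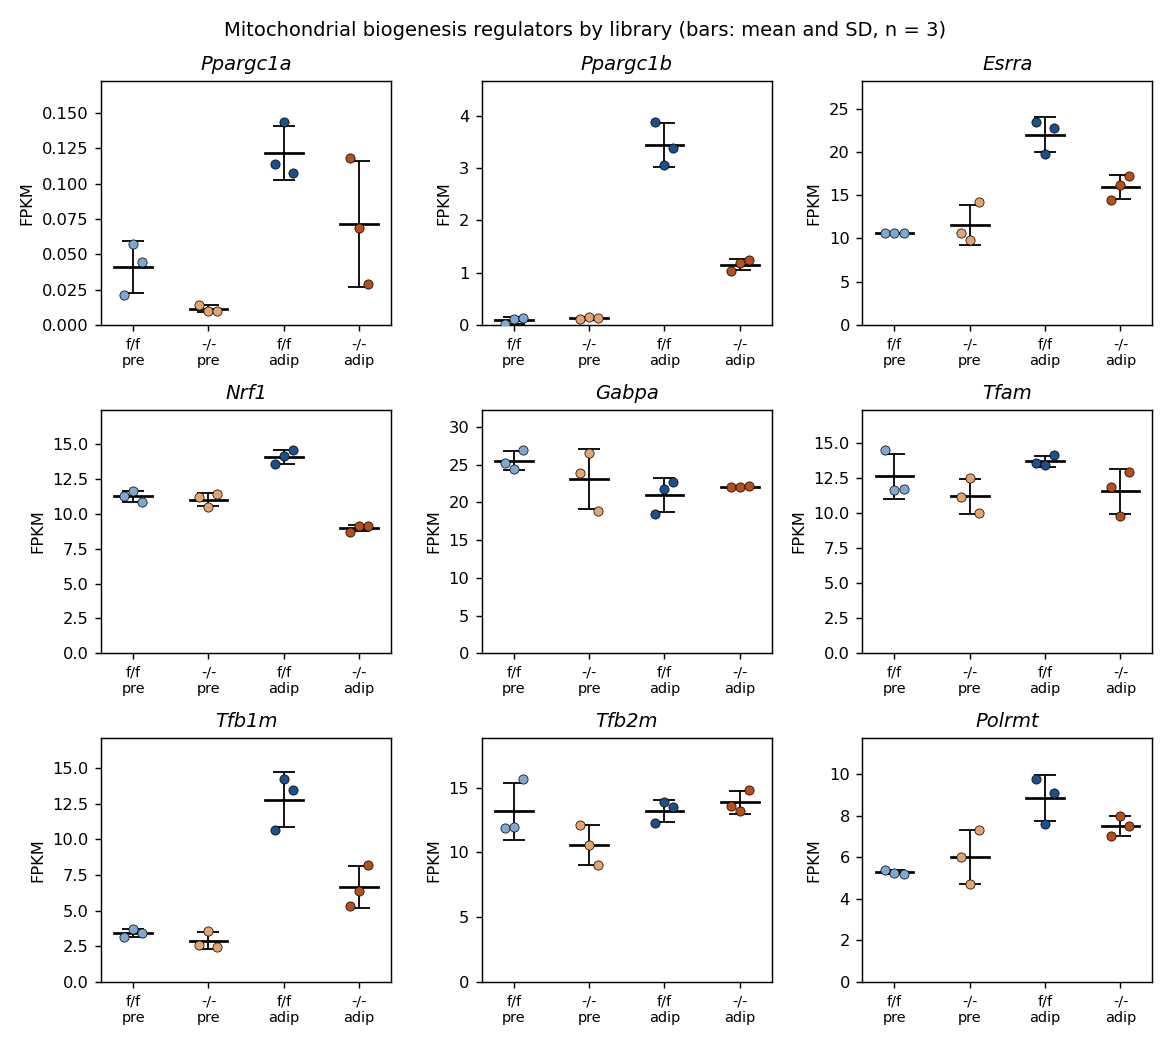
FPKM of each of the 9 regulators in the 12 libraries, by genotype (f/f, Aclyf/f; -/-, Acly-/-) and stage (pre, preadipocyte on day 0; adip, adipocyte on day 4). Points are libraries, and bars give the mean and SD of 3. Each vertical axis starts at 0 and has its own range, and Ppargc1a stays under 0.15 FPKM. Ppargc1b, Esrra, Nrf1, Tfb1m and Tfam are lower in all Acly-/- adipocyte libraries than in any Aclyf/f adipocyte library. These are 5 of 9 regulators, counting Ppargc1a, which overlapped and was not among the genes tested. The adipocyte groups did not overlap for 63.2% of all genes tested, and Tfam was not called.

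Ppargc1a (chromosome 5, 51454249 to 52115853, minus strand, RefSeq on GRCm38.p6, the assembly of mm10) was barely detected. The deposited table gives it a locus of 99673 bases, 51454249 to 51553921, where RefSeq gives 661605. The promoter window searched further on, 51567676 to 51567975, lies outside that locus. Its level was 0.0213, 0.0569 and 0.0445 FPKM in Aclyf/f preadipocyte libraries 1 to 3. In Acly-/- preadipocytes it was 0.0141 FPKM in library 1 and on the floor in libraries 2 and 3. In adipocytes it was 0.114, 0.144 and 0.108 FPKM with Acly and 0.118, 0.0685 and 0.0286 FPKM without. Multiplied by the relative depth, the values above the floor fall on whole multiples of 1 step, within 0.1 step in all 10 such libraries. The 2 libraries on the floor were taken as 0. Read as fragments, they sum over 3 libraries to 7 with Acly and 1 without it before differentiation, and to 29 with Acly and 14 without it afterwards. The groups do not overlap between genotypes in preadipocytes, but do in adipocytes, where Acly-/- library 1 is above 2 of the 3 Aclyf/f libraries. The exact two-sided permutation test on log2(FPKM + 1) gave p = 0.1 for Acly loss in preadipocytes and for both differentiation changes, the smallest that 3 against 3 libraries allow, and p = 0.3 for Acly loss in adipocytes. With no filter on low values, limma called its rise as Aclyf/f cells differentiated (adjusted p = 0.0122) and not the change in Acly-/- cells (adjusted p = 0.0520).

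Ppargc1b was the more abundant coactivator in adipocytes, and it had the largest difference between genotypes among the 8 tested regulators there. In Aclyf/f preadipocytes it was on the floor in library 1 and at 0.103 and 0.134 FPKM in libraries 2 and 3. In Acly-/- preadipocytes it was 0.102, 0.150 and 0.124 FPKM. Read as fragments, these levels sum to an estimated 8 and 14 over the 3 libraries of each group, so no fold is given for them. The step behind that estimate was chosen so that these same preadipocyte values are near whole multiples of it. In adipocytes it reached 3.89, 3.06 and 3.39 FPKM with Acly and 1.03, 1.19 and 1.24 FPKM without. Every adipocyte library was above every preadipocyte library, and the lowest Aclyf/f adipocyte library was above the highest Acly-/- one.

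Between genotypes, Ppargc1b was 2.98-fold lower in Acly-/- adipocytes (log2 fold change -1.04, SE 0.10, limma adjusted p = 1.28e-06), while preadipocytes gave no call (0.06, SE 0.10, adjusted p = 0.672). With differentiation it rose by 2.04 on the log2(FPKM + 1) scale in Aclyf/f cells (adjusted p = 3.05e-10) and by 0.94 in Acly-/- cells (adjusted p = 2.01e-06). The rise was smaller without Acly by 1.10 (SE 0.14, adjusted p = 2.7e-05). Ppargc1b passed the filter through its adipocyte libraries alone, so a rise was built into its being tested. With no filter on low values the adjusted p was 4.43e-08 and 1.22e-05 for the rises and 9.32e-05 for their difference. Leaving it aside, 4 of 7 regulators rose in Aclyf/f and 3 of 7 in Acly-/- cells. Of the pathway genes described further on, Mterf1b and Prkaa2 likewise passed through adipocyte libraries alone. That scale understates changes of a gene this low: with 0.1 FPKM added in place of 1, the rises were 4.35 and 2.48, the value for Acly loss in adipocytes -1.50 and the difference between the rises -1.87. In Acly-/- adipocytes the adipocyte markers also had a lower sum and the preadipocyte markers a higher one, as given above, and in bulk libraries fewer differentiated cells and less RNA per cell cannot be told apart. Their part in the lower Ppargc1b, Esrra, Nrf1 and Tfb1m was not tested.

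Esrra (chromosome 19, 6910977 to 6922048, minus strand) encodes ERRalpha, an orphan nuclear receptor that binds targets together with either PGC-1 coactivator. Its level was 10.6 FPKM in all 3 Aclyf/f preadipocyte libraries and 10.7, 9.77 and 14.2 FPKM in Acly-/- preadipocytes. In adipocytes it was 23.5, 19.7 and 22.7 FPKM with Acly and 14.5, 16.2 and 17.2 FPKM without. Acly-/- preadipocyte library 3 stands above the other preadipocytes and near the lowest Acly-/- adipocyte library, and the adipocyte groups do not overlap. Esrra rose 2.07-fold as Aclyf/f cells differentiated (log2 fold change 0.98, SE 0.12, adjusted p = 3.83e-06) and 1.38-fold in Acly-/- cells (0.45, SE 0.12, adjusted p = 0.00431). Without Acly it was 1.38-fold lower in adipocytes (-0.44, adjusted p = 0.00573) and not called in preadipocytes (0.09, adjusted p = 0.544). The rise differed between genotypes by -0.53 (SE 0.16, adjusted p = 0.0156), a call that ended when the low genes were not filtered out (adjusted p = 0.0610). Of its exon bases, 1.66% are shared with Trmt112 on the other strand.

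Nrf1 (chromosome 6, 30047985 to 30153458, plus strand) encodes nuclear respiratory factor 1, which binds GC-rich promoters of respiratory chain and mitochondrial transcription genes. It was 11.3, 11.6 and 10.9 FPKM with and 11.2, 10.5 and 11.4 FPKM without Acly in preadipocytes. Adipocyte libraries held 13.6, 14.1 and 14.6 FPKM with Acly and 8.73, 9.13 and 9.11 FPKM without. All Aclyf/f adipocyte libraries thus lie above all preadipocyte libraries, and all Acly-/- adipocyte libraries below them. Nrf1 rose 1.25-fold as Aclyf/f cells differentiated (log2 fold change 0.30, SE 0.07, adjusted p = 0.00145) and fell 1.23-fold in Acly-/- cells (-0.27, SE 0.07, adjusted p = 0.00431). Of the 8 tested regulators, it alone was called in opposite directions in the 2 genotypes. The difference between both changes was -0.57 (SE 0.10, adjusted p = 0.000353). In adipocytes it was 1.57-fold lower without Acly (-0.59, adjusted p = 8.5e-06), and in preadipocytes it was not called (-0.03, adjusted p = 0.771). All 4 of its calls held in every alternative setting and with each library left out, with adjusted p of at most 0.0267.

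Gabpa (chromosome 16, 84834891 to 84863783, plus strand) encodes the DNA-binding subunit of GABP, an ETS family factor also called nuclear respiratory factor 2. It was the most abundant regulator in preadipocytes, with 25.3, 24.4 and 26.9 FPKM with Acly and 23.9, 26.6 and 18.8 FPKM without it. In adipocytes it was 18.5, 21.8 and 22.7 FPKM with Acly and 22.0, 22.0 and 22.2 FPKM without. Genotypes overlap at the preadipocyte stage, and at the adipocyte stage the Acly-/- libraries lie within the range of the Aclyf/f ones. Gabpa fell 1.22-fold as Aclyf/f cells differentiated (log2 fold change -0.28, SE 0.11, adjusted p = 0.0361). That call ended without Aclyf/f adipocyte library 1 (adjusted p = 0.150), Aclyf/f preadipocyte library 1 (0.0640) or library 3 (0.109), with no filter (0.106), with the replicate number as a block (0.0524) and with libraries rescaled to equal FPKM sums (0.120). No other contrast called it, with log2 fold changes of -0.15 and 0.08 for Acly loss in preadipocytes and adipocytes (SE 0.11 each, adjusted p = 0.287 and 0.584) and -0.05 for differentiation in Acly-/- cells (adjusted p = 0.720). Of its exon bases, 6.98% are shared with the respiratory gene Atp5j on the other strand (306 ± 24.7 FPKM in Aclyf/f preadipocytes, 409 ± 9.25 FPKM in Aclyf/f adipocytes), and the handling of strand is not stated, so reads there cannot be told apart.

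The promoters of the mitochondrial transcription genes are shown because these 4 genes differed in what was called: Tfb1m passed the test in 4 of 5 contrasts, Tfb2m and Polrmt in 1 each and Tfam in 0. Each window runs from 250 bases before to 50 bases after the transcription start, from RefSeq on GRCm38.p6, written 5′ to 3′ on the gene's strand. The windows are chr10:71237995-71238294 (Tfam), chr17:3557706-3558005 (Tfb1m), chr1:179546227-179546526 (Tfb2m) and chr10:79746532-79746831 (Polrmt), all on the minus strand. Capitals mark exact matches, on either strand, to TGCGCA (a short NRF1 site, its own reverse complement) or CCGGAAG (the ETS family motif bound by GABP).
Tfam: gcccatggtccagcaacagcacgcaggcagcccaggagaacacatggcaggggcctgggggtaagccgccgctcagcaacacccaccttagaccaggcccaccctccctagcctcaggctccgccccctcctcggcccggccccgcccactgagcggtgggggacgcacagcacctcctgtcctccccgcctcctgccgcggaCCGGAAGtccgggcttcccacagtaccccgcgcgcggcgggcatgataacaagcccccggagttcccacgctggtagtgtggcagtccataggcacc
Tfb1m: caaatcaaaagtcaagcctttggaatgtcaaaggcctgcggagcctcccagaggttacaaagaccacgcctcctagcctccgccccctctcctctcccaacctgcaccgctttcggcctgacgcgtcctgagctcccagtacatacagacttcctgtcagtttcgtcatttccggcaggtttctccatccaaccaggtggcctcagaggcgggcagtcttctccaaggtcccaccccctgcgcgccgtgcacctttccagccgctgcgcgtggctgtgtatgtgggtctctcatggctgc
Tfb2m: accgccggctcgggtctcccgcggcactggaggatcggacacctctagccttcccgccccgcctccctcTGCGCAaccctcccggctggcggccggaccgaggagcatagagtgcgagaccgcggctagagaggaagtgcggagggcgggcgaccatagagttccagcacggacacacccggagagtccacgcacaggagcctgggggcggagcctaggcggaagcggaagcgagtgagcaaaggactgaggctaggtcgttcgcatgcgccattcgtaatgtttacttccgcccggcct
Polrmt: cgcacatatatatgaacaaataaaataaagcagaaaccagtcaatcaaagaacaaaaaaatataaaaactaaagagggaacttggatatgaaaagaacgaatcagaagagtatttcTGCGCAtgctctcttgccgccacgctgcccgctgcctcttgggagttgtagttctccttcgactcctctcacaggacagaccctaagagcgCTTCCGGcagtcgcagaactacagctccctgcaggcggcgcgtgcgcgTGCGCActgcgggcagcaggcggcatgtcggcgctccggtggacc

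Tfam holds 1 ETS match 47 bases before its start, and Tfb2m holds 1 short NRF1 site 181 bases before. Polrmt holds an ETS match 43 bases before with short NRF1 sites 134 bases before and 6 bases after. Tfb1m holds no exact match to either. Only exact matches were searched, so a site that departs from these letters by 1 base is not marked. Whether any site is bound in these cells was not tested. Among the other regulators, Esrra has 1 short NRF1 site 31 bases before its start and Gabpa 1 ETS match 93 bases before. Ppargc1a and both windows of Nrf1 have none, and Ppargc1b was not searched. Over all 32851 promoter windows of the table, 7.76% hold TGCGCA and 8.86% hold CCGGAAG. The full NRF1 palindrome (0.971% of windows), AAGGTCA, bound by nuclear receptors such as ERRalpha (4.72%), and the E-box CACGTG (7.15%) were searched as well and matched in none of the windows of the 8 regulators searched.

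**Figure D2:**
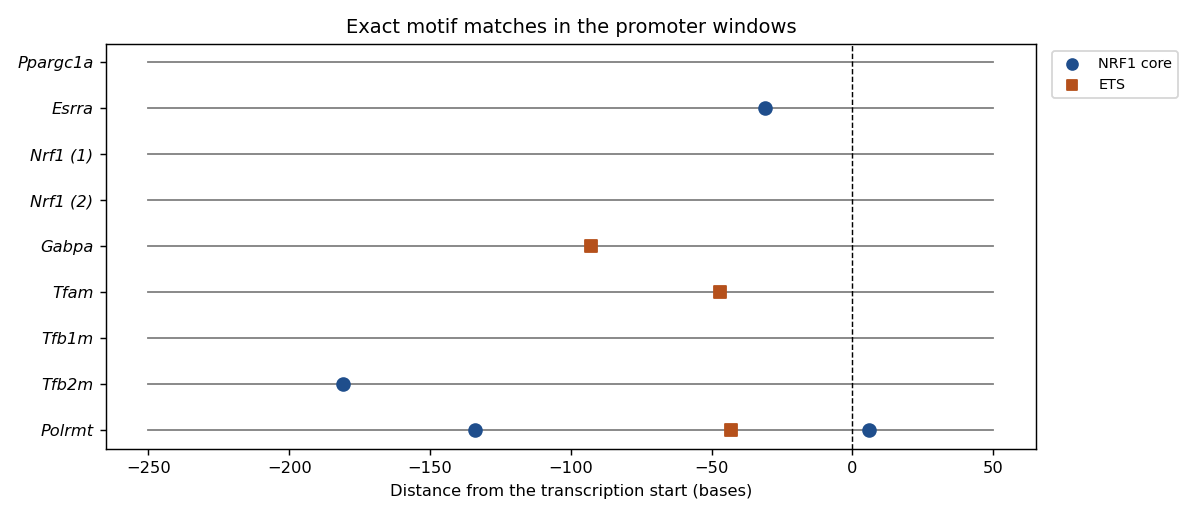
Position of exact matches to the short NRF1 site TGCGCA (circles, labelled NRF1 core) and the ETS motif CCGGAAG (squares) in the promoter windows of 8 regulators. Positions are distances in bases from the transcription start (dashed line). Nrf1 has 2 windows. Polrmt carries 3 matches and Tfb1m none.

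Tfam (chromosome 10, 71225468 to 71238328, minus strand), whose product coats mitochondrial DNA, was called in 0 of the 5 contrasts. Its levels were 14.5, 11.7 and 11.8 FPKM with and 11.2, 12.5 and 10.0 FPKM without Acly in preadipocytes, and 13.6, 13.4 and 14.2 FPKM with and 11.9, 9.84 and 13.0 FPKM without Acly in adipocytes. The adipocyte groups do not overlap, and the preadipocyte groups do. Limma made no call for Acly loss in preadipocytes (log2 fold change -0.16, SE 0.11, adjusted p = 0.277) or adipocytes (-0.24, SE 0.11, adjusted p = 0.0900), the latter being called without Acly-/- adipocyte library 3 (adjusted p = 0.0424). Differentiation gave 0.12 in Aclyf/f (adjusted p = 0.365) and 0.04 in Acly-/- cells (adjusted p = 0.788).

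Tfb1m (chromosome 17, 3519250 to 3557796, minus strand) rose with differentiation and rose less without Acly. It was 3.12, 3.72 and 3.41 FPKM with and 2.60, 3.58 and 2.47 FPKM without Acly in preadipocytes. Adipocytes held 10.6, 14.3 and 13.5 FPKM with Acly and 5.31, 6.39 and 8.22 FPKM without. The 4 groups form 3 separate ranges, the preadipocytes of both genotypes overlapping at the bottom. The rise was 3.74-fold in Aclyf/f cells (log2 fold change 1.63, SE 0.15, adjusted p = 2.86e-07) and 2.3-fold in Acly-/- cells (0.97, SE 0.15, adjusted p = 7.53e-05). In adipocytes it was 1.93-fold lower without Acly (-0.86, SE 0.15, adjusted p = 0.00029), and in preadipocytes not called (-0.20, adjusted p = 0.318).

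The difference between both rises of Tfb1m was -0.67 (SE 0.21, adjusted p = 0.0188). Without Acly-/- adipocyte library 1 the adjusted p was 0.0511, and with no filter 0.0826. The deposited table gives Tfb1m a locus of 231141 bases, 3326573 to 3557713, where RefSeq gives 38547. Whether the level of Tfb1m counts only reads of the gene is not known. Of the exon bases of Tfb1m, 3.93% are shared with Tiam2 on the other strand. Tiam2 stood at 6.78 ± 0.231 FPKM before and 2.68 ± 0.298 FPKM after differentiation with Acly, and at 6.96 ± 0.599 and 4.39 ± 0.562 FPKM without it, and without strand the reads of the shared bases cannot be told apart.

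Tfb2m (chromosome 1, 179528052 to 179546305, minus strand), the paralogue that initiates transcription, was called in 1 contrast, where Tfb1m was called in 4. Its level was 11.9, 11.9 and 15.7 FPKM with and 12.1, 10.6 and 9.01 FPKM without Acly in preadipocytes. Adipocytes held 12.3, 13.9 and 13.5 FPKM with Acly and 13.6, 13.2 and 14.9 FPKM without. Preadipocyte library 3 is the highest of its group in Aclyf/f and the lowest in Acly-/- cells. In Aclyf/f cells differentiation gave a log2 fold change of 0.01 (SE 0.12, adjusted p = 0.921), and in Acly-/- cells a rise of 0.37, 1.31-fold (SE 0.12, adjusted p = 0.0143). That call ended without Acly-/- adipocyte library 3 (adjusted p = 0.0558), without Acly-/- preadipocyte library 3 (0.0640) and with no filter (0.0543). The difference between both changes was not called (0.36, SE 0.17, adjusted p = 0.0898), except without Acly-/- preadipocyte library 1 (0.0356). Acly loss gave -0.29 in preadipocytes (SE 0.12, adjusted p = 0.0611, but 0.0237 without Acly-/- library 1 and 0.0473 without Aclyf/f library 1) and 0.07 in adipocytes (adjusted p = 0.660).

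Polrmt (chromosome 10, 79736125 to 79746604, minus strand) encodes the polymerase itself. Its level was 5.39, 5.26 and 5.22 FPKM with and 6.00, 4.73 and 7.34 FPKM without Acly in preadipocytes. Adipocytes held 9.80, 7.63 and 9.10 FPKM with Acly and 7.03, 7.98 and 7.51 FPKM without. Acly-/- preadipocyte library 3 reaches the level of Acly-/- adipocytes, and the genotypes overlap at both stages. Polrmt rose 1.67-fold as Aclyf/f cells differentiated (log2 fold change 0.64, SE 0.12, adjusted p = 0.000363). In Acly-/- cells the value was 0.29 (SE 0.12, adjusted p = 0.0550), which passed without Acly-/- preadipocyte library 3 (0.00623) and with libraries rescaled to equal FPKM sums (0.0292). The difference between both changes was -0.35 (SE 0.17, adjusted p = 0.114), and 0.0191 without Acly-/- preadipocyte library 2. Acly loss gave 0.14 in preadipocytes (adjusted p = 0.380) and -0.21 in adipocytes (adjusted p = 0.177). The table's locus for Polrmt spans 672333 bases against 10480 in RefSeq, so it names a wider region than the gene. Whether the level of Polrmt counts only reads of the gene is not known.

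**Figure D3:**
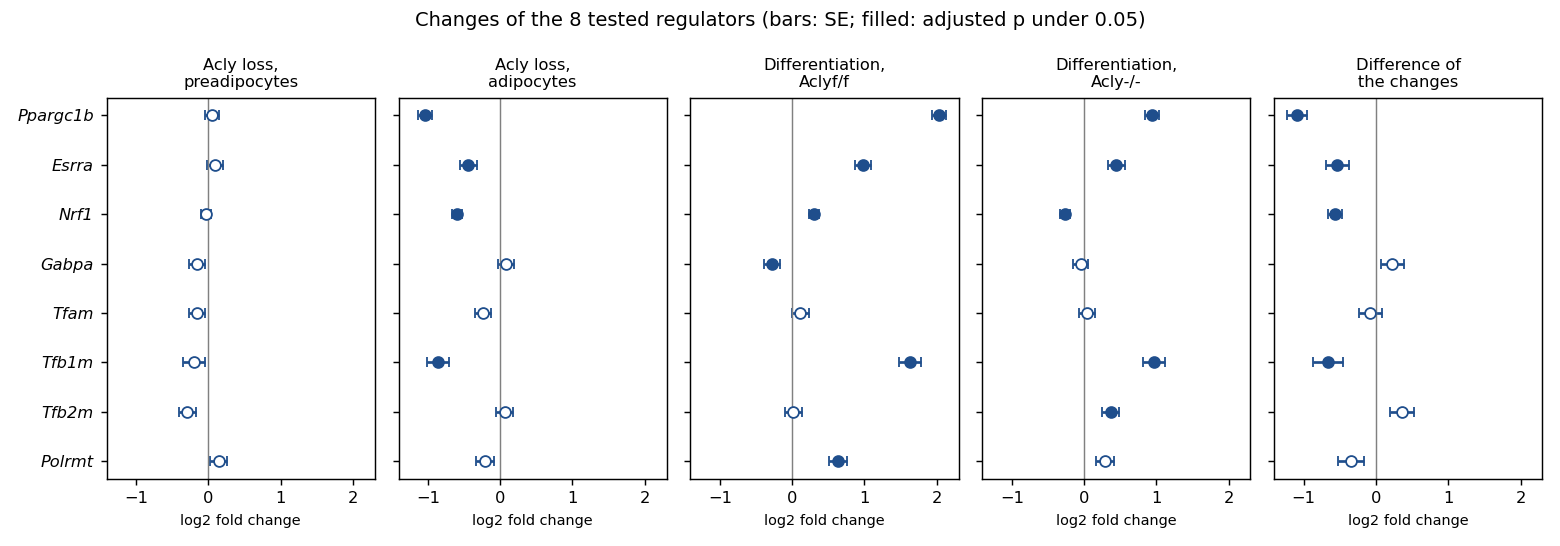
Log2 fold change, on the log2(FPKM + 1) scale, of the 8 tested regulators in the 5 contrasts. Bars are standard errors from limma, filled points have an adjusted p under 0.05, and the last panel is the change with differentiation in Acly-/- cells minus that in Aclyf/f cells. All filled points for Acly loss in adipocytes are left of 0, and Nrf1 lies right of 0 in Aclyf/f and left of 0 in Acly-/- differentiation.

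Ordered by mean level, Aclyf/f adipocytes held Esrra at 22.0 ± 2.00 FPKM (SD, n = 3) and Gabpa at 21.0 ± 2.22, which lie within their spread of each other. Nrf1 (14.1 ± 0.493), Tfam (13.7 ± 0.382), Tfb2m (13.2 ± 0.835) and Tfb1m (12.8 ± 1.92 FPKM) followed, also within their spread, then Polrmt (8.84 ± 1.11), Ppargc1b (3.45 ± 0.421) and Ppargc1a (0.122 ± 0.0194 FPKM). In Acly-/- adipocytes Gabpa came first (22.1 ± 0.109 FPKM), ahead of Esrra (15.9 ± 1.36) and Tfb2m (13.9 ± 0.878), followed by Tfam (11.6 ± 1.60), Nrf1 (8.99 ± 0.226), Polrmt (7.51 ± 0.474) and Tfb1m (6.64 ± 1.47 FPKM). Nrf1 thus ranked above Tfam with Acly and below it without, and Tfb1m above and below Polrmt, the last 2 lying within their spread in Acly-/- adipocytes. In preadipocytes of both genotypes Gabpa was highest, and Tfb1m was the lowest apart from the PGC-1 genes, at 3.42 ± 0.301 FPKM with Acly and 2.88 ± 0.609 FPKM without it. Over the 8 tested regulators the median log2 fold change was -0.09 and -0.34 for Acly loss in preadipocytes and adipocytes, and 0.47 and 0.33 for differentiation in Aclyf/f and Acly-/- cells. Over all genes tested the same medians were -0.01, -0.02, -0.00179 and 0.00373. The differentiation medians of the regulators include Ppargc1b, whose rise was built into its being tested. Leaving it aside, the middle value of the other 7 was that of Nrf1 in Aclyf/f (0.30) and of Polrmt in Acly-/- cells (0.29).

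Other genes of the pathway were taken from lists by function. Each count is to be read against the shares of all genes tested: 19.7% higher and 22.4% lower for Acly loss in preadipocytes, 25.6% and 29.2% in adipocytes, 36.5% and 36.0% in Aclyf/f differentiation and 30.4% and 31.0% in Acly-/- differentiation. Nuclear genes for respiratory chain subunits and cytochrome c, the main output of this network, rose with differentiation in 37 of 38 tested members in Aclyf/f cells (median log2 fold change 1.08) and in 38 of 38 in Acly-/- cells (median 0.57), where 36.5% and 30.4% of all genes rose. Cyc1, cytochrome c1 of complex III, rose 4.29-fold in Aclyf/f cells, from 68.7 ± 3.62 to 294 ± 21.4 FPKM, the largest rise of the list there. In Acly-/- cells that was Uqcrc2, a core subunit of the same complex, at 39.1 ± 2.64 and 90.5 ± 2.59 FPKM, 2.31-fold. In adipocytes, 25 of the 38 were lower without Acly and 2 higher (median -0.33), against 29.2% and 25.6% of all genes, led by Ndufs8, an iron-sulphur subunit of complex I, from 146 ± 14.6 to 82.7 ± 0.753 FPKM. Ndufa4 was the largest of the 2 rises, 1.29-fold to 609 ± 58.8 FPKM. In preadipocytes 10 were higher and 1 lower (median 0.06), with Cyc1 1.34-fold higher and Uqcrh 1.64-fold lower. In either direction that is a smaller share called than the 42.2% of all genes. Once libraries were rescaled to equal FPKM sums the 10 became 3, with 3 lower, and the median turned to -0.03. Of the exon bases of Uqcrc2, 19.7% are shared with Pdzd9. Among genes named below, Mpv17 shares 14.4% of its exon bases with Gm29609, and Hspe1, Thra, Timm17b, Ucp2 and Ncoa3 up to 7.60% with a neighbour.

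Of 17 genes known as targets of PGC-1alpha, 9 passed the filter and were tested. All 9 rose in Aclyf/f differentiation (median 1.66), and 8 of them were lower and 1 higher in Acly-/- adipocytes (median -0.81). Cox7a1, a cytochrome oxidase subunit of oxidative tissues, led both, at 1.02 ± 0.372 FPKM in Aclyf/f preadipocytes, 30.2 ± 5.03 FPKM in Aclyf/f adipocytes and 1.25 ± 0.449 FPKM in Acly-/- adipocytes. The gene that was higher without Acly was Pdk4, a kinase that shuts off pyruvate dehydrogenase, 1.54-fold in adipocytes (41.7 ± 2.71 FPKM) and 2.22-fold in preadipocytes (21.2 ± 0.979 FPKM). In preadipocytes 3 of 9 were higher and 1 lower, the fall being Acadm, an acyl-CoA dehydrogenase, at 48.9 ± 3.09 and 41.3 ± 2.29 FPKM. That call ended without Acly-/- preadipocyte library 1 (adjusted p = 0.0625) or Aclyf/f preadipocyte library 1 (0.0589) or 3 (0.0638). In Acly-/- differentiation 7 of 9 rose and 1 fell. The uncoupling protein gene Ucp2 rose from 1.38 ± 0.356 to 5.21 ± 0.349 FPKM, and the angiogenic factor Vegfa fell 1.36-fold.

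Mitochondrial DNA replication and maintenance genes rose in 15 of 23 and fell in 5 in Aclyf/f differentiation (median 0.50), and rose in 9 and fell in 3 in Acly-/- cells (median 0.14). The 12 called in Acly-/- cells are a smaller share than the 61.4% of all genes. In adipocytes 12 were lower without Acly and 2 higher (median -0.34), while in preadipocytes 7 were higher and 1 lower (median 0.21). The 8 called in preadipocytes are a smaller share than the 42.2% of all genes. Lonp1, the matrix protease that degrades TFAM among other proteins, had the largest called rise or fall of the list in 4 contrasts. Preadipocytes held 34.5 ± 0.458 FPKM with Acly and 81.1 ± 14.5 FPKM without it, and adipocytes 296 ± 13.3 and 171 ± 4.59 FPKM. It was thus 2.35-fold higher without Acly before differentiation and 1.73-fold lower after (limma adjusted p = 6.09e-07 and 1.58e-05). Ssbp1, which coats single-stranded mitochondrial DNA, was 1.26-fold higher in Acly-/- adipocytes, a call that ended with libraries rescaled to equal FPKM sums (adjusted p = 0.101), when 0 genes of the list were higher and 14 lower. Mpv17, an inner membrane protein needed to keep mitochondrial DNA, fell 1.40-fold in Aclyf/f differentiation and was the 1 lower gene in preadipocytes (log2 fold change -0.24), except without Acly-/- (adjusted p = 0.0578) or Aclyf/f (0.110) preadipocyte library 2. The topoisomerase Top3a fell from 7.60 ± 0.232 to 3.80 ± 0.0281 FPKM in Acly-/- differentiation.

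Genes for mitochondrial transcription and RNA processing outside the 9 were called about as often as all genes, in either direction, in Aclyf/f differentiation (23 of 32, against 72.5%). Of 32, 20 rose and 3 fell in Aclyf/f differentiation (median 0.42), and 21 rose and 3 fell in Acly-/- cells (median 0.46). Leaving aside Mterf1b, which passed the filter through adipocyte libraries alone, 19 of 31 rose in Aclyf/f and 20 of 31 in Acly-/- cells. For Acly loss the counts were 6 higher and 5 lower in preadipocytes (median 0.13) and 9 higher and 7 lower in adipocytes (median 0.02), no larger a share called than the 42.2% and 54.8% of all genes. With libraries rescaled to equal FPKM sums these became 3 and 5, and 4 and 7 with a median of -0.05. The RNA methyltransferase gene Nsun4 was 1.66-fold higher in Acly-/- preadipocytes. Mrpl12, a ribosomal protein of the organelle that also binds POLRMT, rose 3.71-fold in Aclyf/f cells to 179 ± 19.7 FPKM and was 1.89-fold lower in Acly-/- adipocytes. Hsd17b10, a subunit of mitochondrial RNase P, rose 2.52-fold in Acly-/- cells to 104.7 ± 9.15 FPKM, and Fastkd3 fell 1.43-fold. Mterf4, a factor of mitochondrial ribosome assembly, fell from 141 ± 12.7 to 28.3 ± 1.99 FPKM in Aclyf/f differentiation and was 2.71-fold higher in Acly-/- adipocytes and 1.68-fold lower in Acly-/- preadipocytes, but 35.2% of its exon bases are shared with Sned1, so its level is uncertain. Of the transcripts of the mitochondrial genome, 0 were found among the 24341 genes under the symbols searched, so none was analysed.

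Protein import and chaperone genes rose in 21 of 29 and fell in 1 in Aclyf/f differentiation (median 0.54, with 72.5% of all genes called in either direction), and rose in 21 with 0 falls in Acly-/- cells (median 0.49). Hspa9, the motor chaperone of import, rose 5.29-fold in Aclyf/f cells, from 163 ± 6.04 to 861 ± 32.9 FPKM, and Timm10, an intermembrane space chaperone, 2.66-fold in Acly-/- cells. The 1 fall was Tomm5, a small subunit of the outer membrane translocase (log2 fold change -0.24, adjusted p = 0.0341). It was not called with libraries rescaled to equal FPKM sums (0.0539), with no filter (0.0913), in a fit of the Aclyf/f groups alone (0.0820), or without library 2 (0.182) or 3 (0.0979) of Aclyf/f adipocytes or library 1 (0.113) or 2 (0.0794) of Aclyf/f preadipocytes. For Acly loss 8 were higher and 2 lower in preadipocytes, with Hspa9 1.86-fold higher and Timm17a 1.27-fold lower, and 5 higher and 7 lower in adipocytes, with Hspe1 1.46-fold higher and Timm17b 1.44-fold lower. In either direction these are smaller shares called than the 42.2% and 54.8% of all genes. Rescaled to equal FPKM sums, the 8 in preadipocytes became 1. The Timm17a call ended with no filter (adjusted p = 0.136), in a fit of the preadipocyte groups alone (0.0781), and without Acly-/- adipocyte library 1 (0.0510), Acly-/- preadipocyte library 1 (0.0633) or 3 (0.135) or Aclyf/f preadipocyte library 1 (0.175). Fusion, fission and mitophagy genes rose in 10 of 16 tested in Aclyf/f and 9 of 16 in Acly-/- differentiation, with 0 falls (medians 0.38 and 0.34). In either direction that is a smaller share called than the 72.5% and 61.4% of all genes. The mitophagy receptor Bnip3 went from 58.6 ± 3.37 to 398 ± 39.5 FPKM in Aclyf/f cells and was 3.23-fold lower in Acly-/- adipocytes (123 ± 13.3 FPKM), where 7 of 16 were lower and 3 higher, led by the receptor Fundc1 (1.40-fold). The fusion gene Mfn2 rose 1.90-fold in Acly-/- differentiation. In preadipocytes 3 were higher and 2 lower, Bnip3 1.54-fold higher and the kinase Pink1 1.38-fold lower. These 5 are a smaller share than the 42.2% of all genes. The median of 0.04 turned to -0.05 with libraries rescaled to equal FPKM sums.

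Partners and upstream regulators of PGC-1 moved in both directions. Of 33 tested, 13 rose and 10 fell in Aclyf/f and 15 rose and 8 fell in Acly-/- differentiation (median 0.13 in both). The 23 called in each lie near the 72.5% and 61.4% of all genes called in either direction. Prkaa2 is among the rises of both and passed the filter through adipocyte libraries alone. Leaving it aside, 12 of 32 rose in Aclyf/f and 14 of 32 in Acly-/- cells. Ncoa1, a steroid receptor coactivator, rose 5.66-fold in Aclyf/f cells from 2.67 ± 0.485 to 15.1 ± 0.844 FPKM, and its relative Ncoa3 fell 1.99-fold. In Acly-/- cells Pparg, the receptor that rosiglitazone activates, rose 4.19-fold to 148 ± 13.7 FPKM and the acetyltransferase gene Crebbp fell 1.69-fold. For Acly loss 6 were higher and 13 lower in preadipocytes (median -0.19), and 7 higher and 10 lower in adipocytes (median -0.06), or 4 and 15, and 4 and 10, with libraries rescaled to equal FPKM sums. The 17 called in adipocytes are near the 54.8% of all genes. Myc, which also drives mitochondrial genes, had the largest rise of the list without Acly at both stages, 1.66-fold to 39.1 ± 2.48 FPKM and 2.07-fold to 53.6 ± 1.43 FPKM. Prkaa2, a catalytic subunit of the energy sensor AMPK, was lower in Acly-/- adipocytes, at 0.383 ± 0.102 against 1.59 ± 0.220 FPKM with Acly. It passed the filter through Aclyf/f adipocyte libraries alone, so a fall was built into its being tested, and it is among the 10 lower. The thyroid hormone receptor Thra was 1.54-fold lower in Acly-/- preadipocytes.

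**Figure D4:**
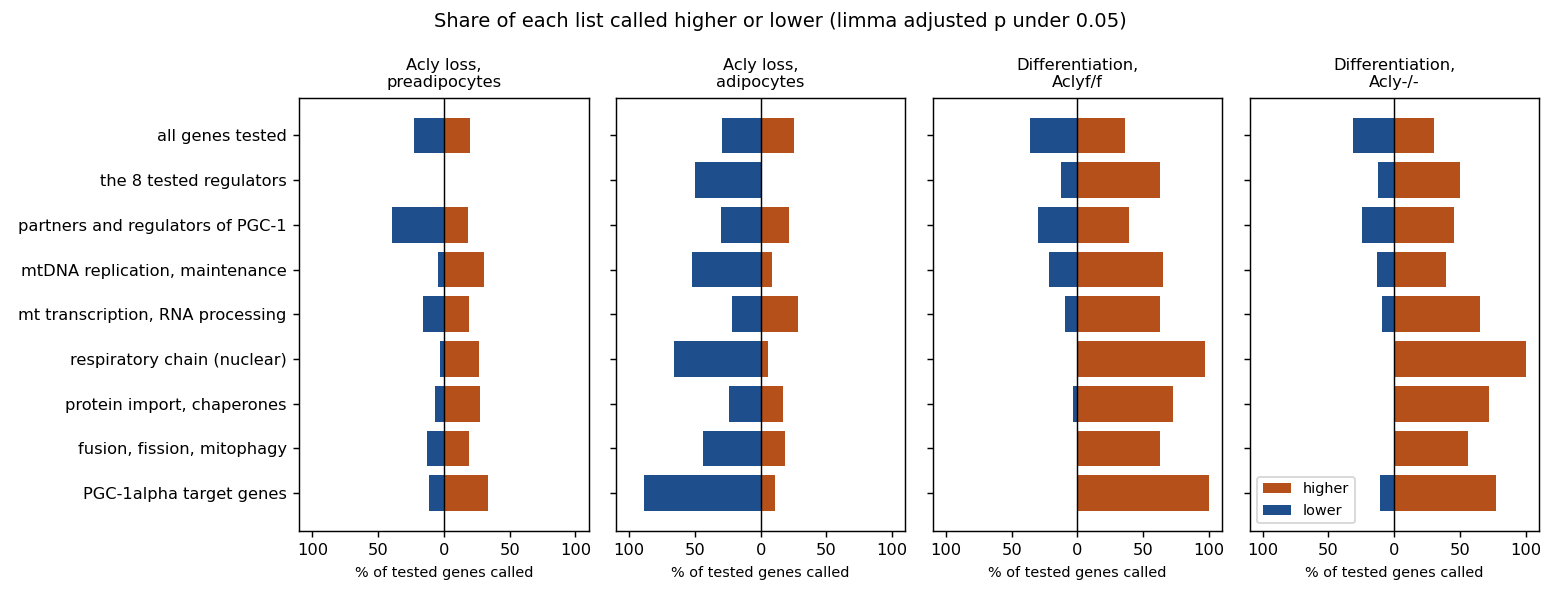
Share of the tested genes of each list that limma called higher (right) or lower (left) in 4 contrasts, beside all 11777 genes tested and the 8 tested regulators. Acly loss in adipocytes has 25 of 38 respiratory chain genes and 4 of 8 regulators to the left, while no regulator is called for Acly loss in preadipocytes.

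For each tested regulator, the gene with the most similar profile over the 12 libraries was taken by Pearson correlation of log2 values, as a description over points that share groups. Ppargc1b was most like Cfd, the adipocyte-secreted complement factor adipsin (r = 0.997), at 272 ± 35.9 FPKM with and 18.6 ± 0.790 FPKM without Acly in adipocytes. Esrra was most like Uqcrc1, a core subunit of respiratory complex III (r = 0.987), at 158 ± 6.31 FPKM with and 104 ± 3.90 FPKM without Acly in adipocytes. Tfb1m was most like Hsdl2 (r = 0.987), Nrf1 like Lzts3 (r = 0.974), Polrmt like Wdr18 (r = 0.968) and Gabpa like Cd2ap (r = 0.952). The likeness was weaker for Tfb2m with Zfp120 (r = 0.897) and Tfam with Ywhab (r = 0.893).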

How the data were processed

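Trizol RNA went into TruSeq libraries, per the labels' protocols. Among tools, Bowtie2 2.2.6, Cufflinks 2.2.1 and bcl2fastq are listed, and mm10 as the build, per the submitters' processing notes, with no role or order. The authors deposited FPKM values for 24341 genes and 12 libraries, with a floor of 0.01. The labels state neither the annotation nor the use of strand.

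Values were transformed here as log2(FPKM + 1). The 11777 genes that reached 1 FPKM in 3 or more libraries were fitted as 4 group means with limma 3.58.1 in R 4.3.3, with variances moderated along a trend, and Benjamini-Hochberg adjustment within each contrast. Ppargc1a, under the filter, had an exact permutation test. Summaries used Python 3.11.15. Alternatives changed the pseudocount (0.1), the filter, the scaling, the variance prior and the groups in the fit, added the replicate number as a block, or left out 1 library. Same-numbered libraries deviated together in all 3 pairs only between Acly-/- preadipocytes and adipocytes (correlation 0.123 to 0.147). There all 6 libraries correlated best with their own number in the other group of that contrast. Over all other groups 0 of 12 libraries did so, and differently numbered libraries reached 0.416. Whether the numbers pair libraries is thus not known, and the reported fit pairs none. With the block none of the calls on the regulators in Acly-/- differentiation changed.

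Named genes are the 9 regulators, the gene of each list with the largest called rise and fall per contrast, and the most correlated gene of each regulator. The regulators and lists were chosen with earlier results of these data known.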

Additional observations from a re-analysis of the deposited data

Results flagged for a closer look

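The effect of Acly loss differed between adipocytes and preadipocytes for 4 regulators, by limma's test of the difference itself. On the log2(FPKM + 1) scale, the effect in adipocytes minus that in preadipocytes was -1.10 for Ppargc1b, -0.53 for Esrra, -0.57 for Nrf1 and -0.67 for Tfb1m, with limma adjusted p of 2.7e-05, 0.0156, 0.000353 and 0.0188. In each of the 4, all 3 Acly-/- adipocyte libraries were below all 3 Aclyf/f adipocyte libraries, and the preadipocyte groups overlapped. The 4 were picked by that call on the same values, so this adds no support. Groups did not overlap for 63.2% of all genes tested in adipocytes and 49.9% in preadipocytes. With no filter on low values the calls on Esrra (limma adjusted p = 0.0610) and Tfb1m (0.0826) ended. The 4 of 8 called are near the background, 50.2% of all genes tested.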

How the results depend on the processing

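Counts over all genes stayed within 1.5 times the reported ones in all 99 alternative fits, as did 96 of 99 counts of regulators. The exceptions were Acly loss in preadipocytes, where leaving out 1 library gave 0 to 1 regulators called, and the difference between genotypes in differentiation, where 2 in place of 4 were called with no filter on low values, which tests more genes. Leaving out 1 library gave 3 to 5 there, 4 to 5 for Acly loss in adipocytes, 5 to 6 for Aclyf/f and 4 to 5 for Acly-/- differentiation. Of 796 values of single regulators, 761 kept direction and side of the threshold, 12 lost and 8 gained a call, and 15 changed sign, none of them called. After rescaling to the same FPKM sum, Acly loss in adipocytes gave -0.0038 for Gabpa and -0.012 for Tfb2m. For Tfb2m in Aclyf/f differentiation, quantile normalization gave -0.044 and median-of-ratios rescaling -0.0065. With 1 library left out, log2 fold changes ran from -0.051 to 0.20 for Esrra and -0.052 to 0.0051 for Nrf1 (Acly loss in preadipocytes), -0.0097 to 0.13 for Gabpa (Acly loss in adipocytes), -0.18 to 0.055 for Gabpa and -0.043 to 0.14 for Tfam (Acly-/- differentiation), -0.051 to 0.14 for Tfb2m (Aclyf/f differentiation) and -0.17 to 0.025 for Tfam (difference between genotypes). The causes were not tested.

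With the replicate block, 0 regulators were called for Acly loss in preadipocytes, 4 in adipocytes, 5 for differentiation in each genotype and 4 for the difference. Gabpa in Aclyf/f differentiation passed from an adjusted p of 0.0361 to 0.0524 and no other call on a regulator changed. Within a contrast, the libraries that correlated best with their own number were 0 of 6 for Acly loss at either stage, 4 of 6 for Aclyf/f and 6 of 6 for Acly-/- differentiation. Rescaling to the same FPKM sum shifted the median of all genes by -0.08 for Acly loss in preadipocytes and -0.07 in adipocytes, and lowered the share of rises among all calls from 46.8% to 34.7% and from 46.7% to 36.4%. Depth limits Ppargc1a in all groups and Ppargc1b in preadipocytes, where few fragments stand behind each value.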
